A study of Mus musculus with 4 samples.

Results

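Claudins, cadherins and the desmosomal cadherins and plakophilins hold epithelial cells together, and their RNA was followed here in sorted thymic epithelium. The members are the protein-coding genes of the deposited table whose symbol starts with Cldn, Cdh, Dsg, Dsc or Pkp followed by a digit. They number 69 of the 54532 genes listed, namely 33 claudins, 23 cadherins, 6 desmogleins, 3 desmocollins and 4 plakophilins. The series holds 4 bulk RNA libraries from mice on a C57BL/6 background, 1 library per group. The groups are medullary cells (mTEC) of SCD1 knockout mice, mTEC of littermate controls labelled WT, cortical cells (cTEC) of SCD1 knockout mice, and cTEC of littermate controls. By the series' design text, mTEC were sorted as Ly51- UEA1+ and cTEC as Ly51+ UEA1-. The sources used here do not give how the knockout allele was made, how many mice were pooled, or the age of the mice.

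Claudins are tetraspan proteins that seal the space between epithelial cells at tight junctions, and each member gives that seal its own permeability. Classical cadherins bind like molecules on the next cell in the presence of calcium and are anchored to actin through catenins. Desmogleins and desmocollins are the cadherins of desmosomes, where plakophilins, plakoglobin and desmoplakin tie them to keratin filaments. In the thymus these genes mark epithelial lineages, and claudin-3 and claudin-4 are known as surface markers of Aire-expressing medullary cells and their precursors in the mouse.

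Reads assigned to genes numbered 17051620 in knockout mTEC, 16467844 in control mTEC, 18151725 in knockout cTEC and 15740383 in control cTEC. With no replicates, no difference has a replicate check and no p-value was computed. Intervals below are 95% intervals for counting error only, and each comparison is between libraries rather than conditions. Scd1 had 278 reads in knockout mTEC and 1310 in control mTEC, and 73 in knockout cTEC and 325 in control cTEC. The 8 mTEC markers, Aire among them, summed to 4158 and 4244 CPM (counts relative to the scaled library size) in the knockout and control mTEC libraries and to 726 and 843 in the knockout and control cTEC libraries. The 8 cTEC markers ran the other way, at 3486 and 2870 CPM in knockout and control mTEC against 20600 and 16348 in knockout and control cTEC. Fewer cells of a type and less RNA per cell cannot be told apart in bulk libraries.

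Levels between genes are given as RPKM, the CPM divided by gene length in kilobases, and reads are given where libraries are compared for 1 gene. These reads are not scaled for library size, which was larger for knockout than control cTEC. A small difference in reads can therefore reverse on scaling, and directions are to be taken from the CPM, RPKM or log2 ratios. Of the 69 members, 46 had at least 50 reads over the 4 libraries and 7 had none in any library. A member was measured in a comparison when the pair of libraries held at least 50 reads of it. It met the size rule when the scaled counts also differed at least 2-fold with an interval that excluded equality. A member can be measured through the higher library alone, so counts of members past this rule are descriptions. In knockout mTEC 51 members had 10 or more reads, in control mTEC 51, in knockout cTEC 39 and in control cTEC 38.

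**Figure D1:**
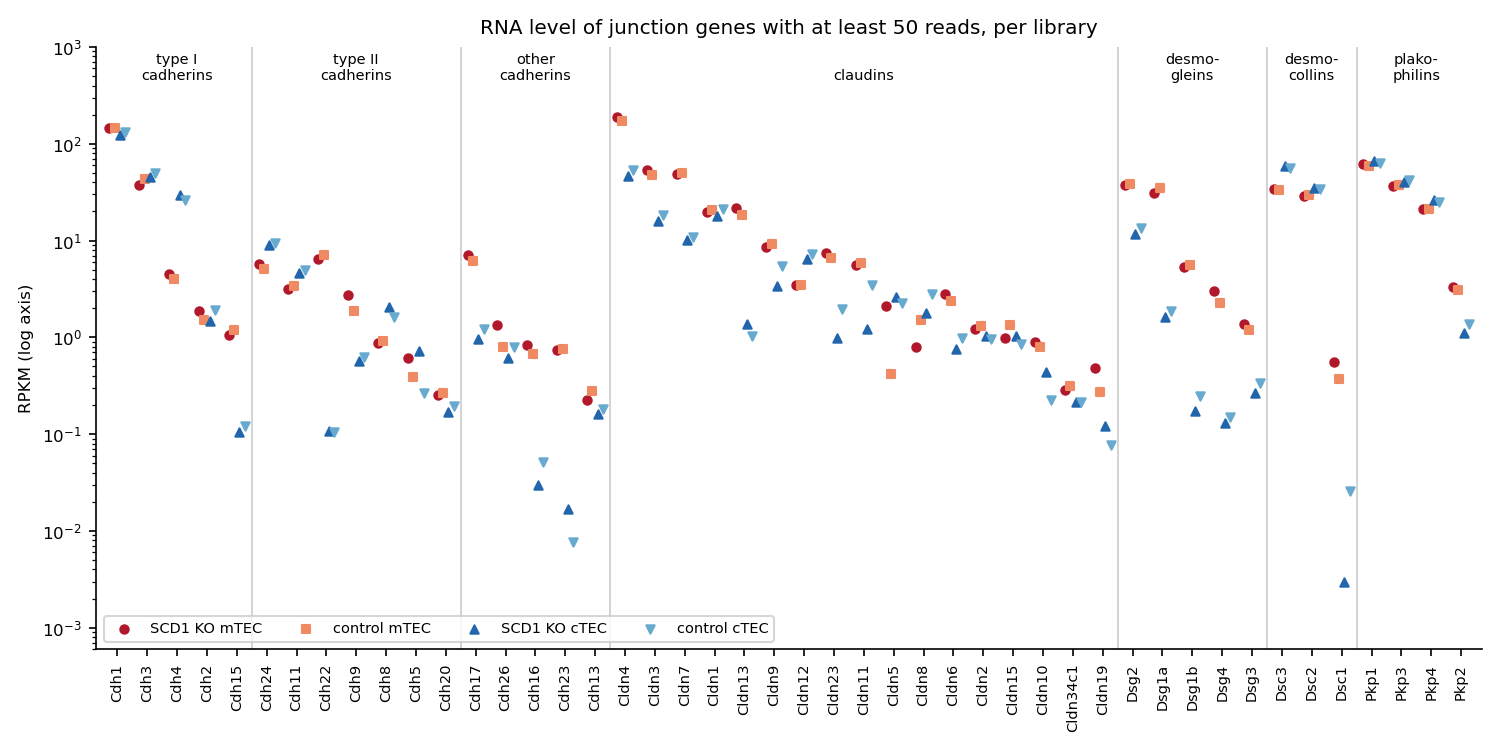
RPKM (log axis) of the 46 members with at least 50 reads over the 4 libraries, by class, with 1 point per library; a library with no read is drawn at the lowest point (Dsc1 in knockout cTEC). Cdh1, Cdh3, Cldn1, Dsc2 and the plakophilins Pkp1, Pkp3 and Pkp4 lie close together in all 4 libraries, while Cdh22, Cdh23, Dsg1a, Dsg1b, Dsg4 and Cldn13 stand far apart between mTEC and cTEC.

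The widest contrast was between medullary and cortical cells. In the knockout libraries 22 of 43 measured members were higher in mTEC by the size rule and 3 were lower, against 19.8% and 8.96% of all 15962 genes tested. In the control libraries 17 of 40 were higher and 3 lower, against 19.0% and 8.53% of 15747 genes. The 17 members higher in control mTEC were also higher in knockout mTEC, and Cdh4 was the lower member shared by both genotypes. The median log2 ratio of mTEC over cTEC over measured members was 1.01 in knockout and 0.62 in control libraries, beside -0.08 and -0.06 over all genes tested. Intervals lay above 0 for 25 of 43 members and below 0 for 12 in the knockout pair, against 34.9% and 41.6% of all genes. In the control pair they lay above 0 for 20 of 40 and below 0 for 14, against 34.8% and 39.9%. The pairs come from different libraries in each genotype, so the knockout and control values share no sample.

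Type I classical cadherins were dominated by Cdh1, and Cdh4 was the abundant member that separated the populations. Cdh1 (E-cadherin, the main epithelial adhesion cadherin; chromosome 8, 106603351 to 106670246, mm10, plus strand) stood at 145 RPKM in knockout mTEC, 144 in control mTEC, 123 in knockout cTEC and 132 in control cTEC. Its log2 ratio of mTEC over cTEC was 0.24 (0.20 to 0.28) in knockout and 0.13 (0.09 to 0.17) in control libraries. All 4 levels therefore lay within a narrow band although the counting intervals excluded equality. Cdh3 (P-cadherin, typical of basal epithelial layers), which lies upstream of Cdh1 on the same strand at 106510891 to 106557297, had 2878, 3205, 3500 and 3350 reads in knockout mTEC, control mTEC, knockout cTEC and control cTEC.

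Cdh4 (R-cadherin, named for retina; chromosome 2, 179442431 to 179899373) had 574 reads in knockout mTEC and 491 in control mTEC, against 3745 in knockout cTEC and 2942 in control cTEC. Both cTEC libraries were high and both mTEC libraries low. Its log2 ratio of mTEC over cTEC was -2.71 (-2.84 to -2.58) in knockout and -2.74 (-2.88 to -2.60) in control libraries, a level 6.53-fold and 6.68-fold lower in mTEC. Cdh4 made up 2.37% of the summed RPKM of type I cadherins in knockout mTEC, 2.05% in control mTEC, 14.8% in knockout cTEC and 12.6% in control cTEC. Cdh15 (M-cadherin of skeletal muscle) went the opposite way at low level, with 61 and 66 reads in knockout and control mTEC and 6 reads in each cTEC library. Cdh2 (N-cadherin of nerve and mesenchyme) had 267, 208, 210 and 237 reads in knockout mTEC, control mTEC, knockout cTEC and control cTEC, without a 2-fold difference in any comparison.

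Among type II cadherins, Cdh22 was almost restricted to the mTEC libraries. Cdh22 (a cadherin known from brain and pituitary; chromosome 2, 165111507 to 165234853, minus strand) had 422 reads in knockout mTEC and 452 in control mTEC, against 7 in knockout cTEC and 6 in control cTEC. That is a log2 ratio of 5.81 (4.85 to 7.23) in knockout and 5.96 (4.94 to 7.53) in control libraries. It was the class member with the highest RPKM in mTEC, at 6.49 in knockout and 7.16 in control, and stood at 0.108 and 0.106 in knockout and control cTEC. Cdh9 (a neural type II cadherin) had 171 and 113 reads in knockout and control mTEC and 35 and 34 in knockout and control cTEC.

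Cdh24, Cdh8 and Cdh11 of the type II class leaned to the cortex. Cdh24, the type II member of highest RPKM in cTEC, stood at 5.66 and 5.05 RPKM in knockout and control mTEC and at 8.98 and 9.51 in knockout and control cTEC. Its log2 ratio of mTEC over cTEC was -0.66 (-0.86 to -0.47) in knockout and -0.91 (-1.12 to -0.71) in control libraries. Cdh8, a neural cadherin, had 118 and 122 reads in knockout and control mTEC against 279 and 190 in knockout and control cTEC, and met the size rule in the knockout pair (-1.24, -1.57 to -0.93) but not in the control pair (-0.79, -1.14 to -0.46). Those intervals overlap. Cdh11 (the mesenchymal OB-cadherin) had 493 and 512 reads in knockout and control mTEC and 725 and 683 in knockout and control cTEC. On scaled counts the cTEC levels of Cdh11 were 41.4 CPM in knockout and 44.7 in control. The 9 fibroblast and pericyte markers were all detected, and summed to 525 and 517 CPM in knockout and control mTEC and 438 and 448 in knockout and control cTEC. Rgs5 alone held 5950 of the 9228 marker reads in knockout mTEC and 5706 of 8806 in control mTEC. The list was split between the populations. By the size rule 4 of 9 were higher and 3 lower in mTEC in the knockout pair, against 19.8% and 8.96% of all genes. In the control pair 3 were higher and 3 lower, against 19.0% and 8.53%. Dcn, Dpt and Lum were the lower markers in both. The part of these markers in the Cdh11 level was not tested. The 7 other type II members, Cdh6, Cdh7, Cdh10, Cdh12, Cdh18, Cdh19 and Cdh20, had at most 18 reads in any library. None of them had more reads in cTEC than in mTEC of the same genotype. Cdh6 had 14 and 15 reads in knockout and control mTEC and 1 and 3 in knockout and control cTEC.

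Several cadherins outside the classical groups also leaned to the medulla. By the size rule 4 of 5 measured in the knockout pair and 2 of 4 in the control pair were higher in mTEC. The shares over all genes tested were 19.8% and 19.0%. Cdh17 (LI-cadherin, of intestinal epithelium; chromosome 4, 11758147 to 11817895) had 557 and 465 reads in knockout and control mTEC, against 75 and 84 in knockout and control cTEC. Its log2 ratio was 2.88 (2.54 to 3.26) in knockout and 2.30 (1.97 to 2.66) in control libraries. Cdh23, a long cadherin of the hair cell tip link in the inner ear, had 222 and 217 reads in knockout and control mTEC and 5 and 2 reads in knockout and control cTEC. Cdh16 (Ksp-cadherin, of kidney) had 55 and 43 reads in knockout and control mTEC and 2 and 3 in knockout and control cTEC, and was measured in the knockout pair with a log2 ratio of 4.47 (2.86 to 7.86). The 6 enterocyte and hepatocyte markers, which include Cdx1 and Vil1, summed to 301 and 286 CPM in knockout and control mTEC and 17.8 and 25.1 in knockout and control cTEC, where Cdx2 had 5 reads and 0 reads. Their part in the Cdh17 contrast was not tested. Cdh13, the truncated cadherin held by a lipid anchor, had 44, 53, 32 and 31 reads in knockout mTEC, control mTEC, knockout cTEC and control cTEC.

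**Figure D2:**
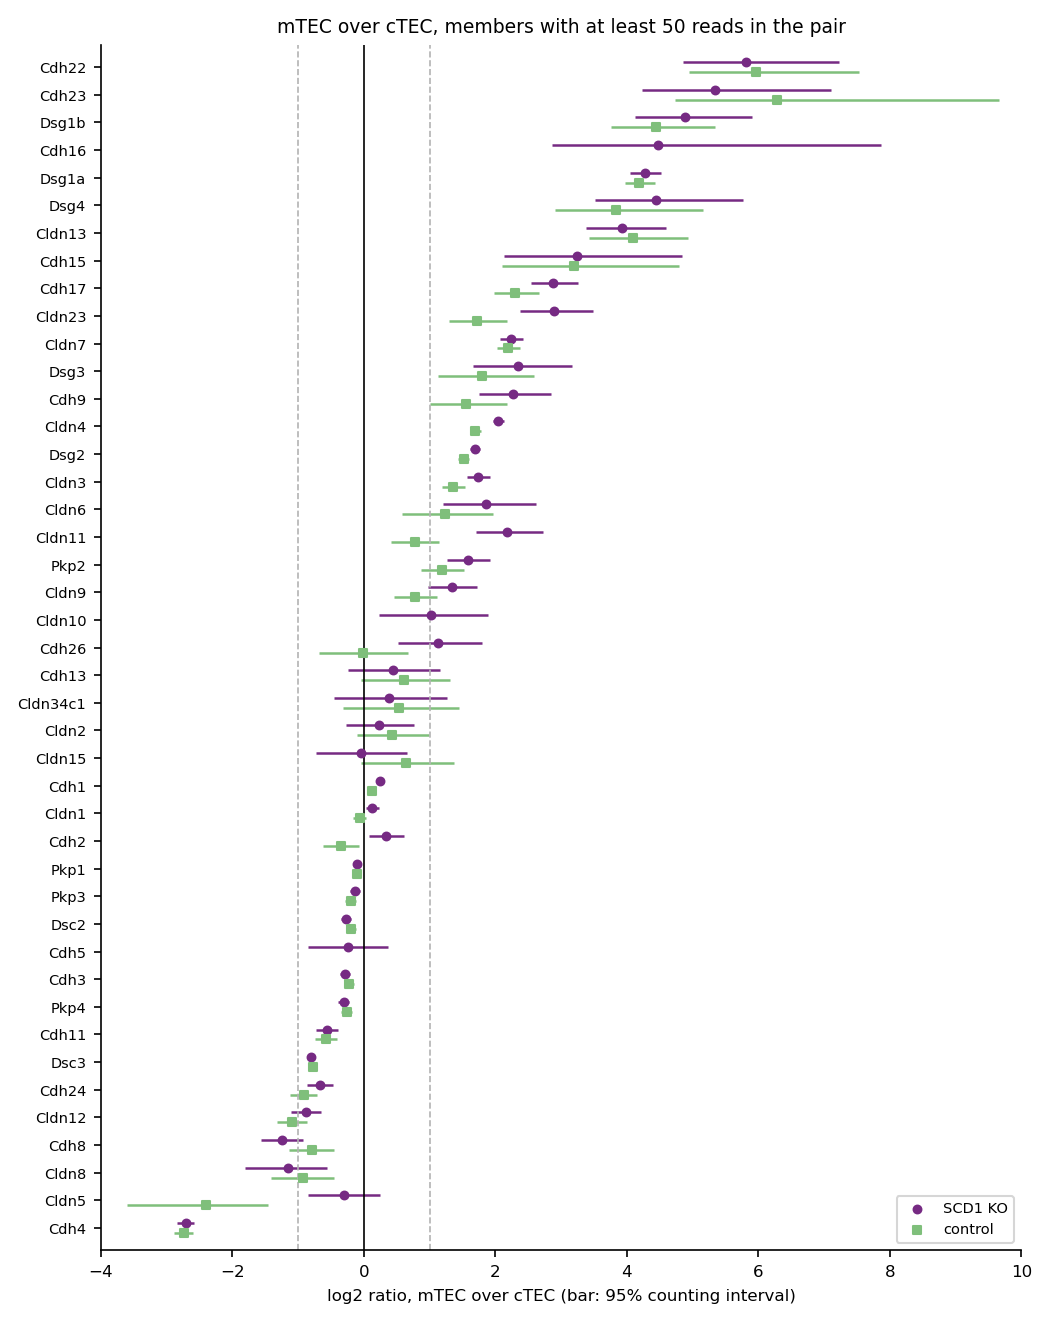
Log2 ratio of mTEC over cTEC for each member with at least 50 reads in the pair, in SCD1 knockout (circles) and control (squares) libraries; bars are 95% counting intervals and dashed lines mark 2-fold. Cdh22, Cdh23, Dsg1a, Dsg1b, Dsg4, Cdh16 and Cldn13 lie far to the right, and Cdh4 is far to the left in both genotypes.

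Claudin RNA was more abundant in mTEC, and a small number of members carried it. Summed over the family, claudins reached 372 and 342 RPKM in knockout and control mTEC against 112 and 132 in knockout and control cTEC. Cldn4, a sealing claudin, alone made up 51.4% and 50.1% of that sum in knockout and control mTEC and 41.4% and 40.3% in knockout and control cTEC. Cldn4 (chromosome 5, 134945119 to 134946934, minus strand) had 6103 and 5305 reads in knockout and control mTEC, against 1474 and 1470 in knockout and control cTEC. Its log2 ratio of mTEC over cTEC was 2.05 (1.96 to 2.13) in knockout and 1.69 (1.61 to 1.78) in control libraries. Cldn3 (134986214 to 134987472, plus strand) is the next protein-coding gene after Cldn4 by start position, 39279 bases away, and encodes another sealing claudin. It had 1179 and 1019 reads in knockout and control mTEC and 351 and 356 in knockout and control cTEC, a log2 ratio of 1.74 (1.57 to 1.92) in knockout and 1.36 (1.18 to 1.54) in control libraries. Cldn7 (an epithelial claudin with lateral as well as apical location; chromosome 11, 69964779 to 69967885) had 1661 and 1638 reads in knockout and control mTEC and 350 and 321 in knockout and control cTEC. Its log2 ratio was 2.24 (2.08 to 2.41) in knockout and 2.19 (2.02 to 2.37) in control libraries.

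The 250 bases before the start of Cldn3, Cldn4 and Cldn7, the most abundant claudins in mTEC, are shown because these genes were higher in mTEC together, and those of Cldn5 because it gave the largest genotype ratio among members with at least 50 reads in the pair. The sequences are RefSeq's, on build GRCm38.p6. They lie at chr5:134985964-134986213 (plus strand) for Cldn3, chr5:134946935-134947184 (minus) for Cldn4, chr11:69964529-69964778 (plus) for Cldn7 and chr16:18776597-18776846 (plus) for Cldn5. Capitals mark a match to CAGGTG, the E-box read by Snail and Zeb factors, or to AACNGGTT, the motif of grainyhead-like factors, on either strand.
Cldn3: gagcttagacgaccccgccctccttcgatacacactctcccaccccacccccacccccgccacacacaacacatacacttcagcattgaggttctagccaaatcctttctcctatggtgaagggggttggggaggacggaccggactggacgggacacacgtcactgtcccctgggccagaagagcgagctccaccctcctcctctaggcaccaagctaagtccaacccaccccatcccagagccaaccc
Cldn4: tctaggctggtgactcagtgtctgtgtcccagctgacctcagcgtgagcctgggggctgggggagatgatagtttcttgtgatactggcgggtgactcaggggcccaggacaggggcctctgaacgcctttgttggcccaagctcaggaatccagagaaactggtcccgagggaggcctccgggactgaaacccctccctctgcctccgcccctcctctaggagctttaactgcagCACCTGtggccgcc
Cldn7: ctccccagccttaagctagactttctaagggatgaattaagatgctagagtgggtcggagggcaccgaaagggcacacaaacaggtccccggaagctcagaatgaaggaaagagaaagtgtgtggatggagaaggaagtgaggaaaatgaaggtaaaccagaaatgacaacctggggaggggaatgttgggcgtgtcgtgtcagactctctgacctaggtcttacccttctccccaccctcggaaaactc
Cldn5: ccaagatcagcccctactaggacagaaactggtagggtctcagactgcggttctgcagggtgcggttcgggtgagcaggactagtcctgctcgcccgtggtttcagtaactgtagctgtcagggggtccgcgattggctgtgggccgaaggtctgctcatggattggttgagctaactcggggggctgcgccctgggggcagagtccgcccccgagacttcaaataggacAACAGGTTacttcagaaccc

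In these windows Cldn4 held CAGGTG on the opposite strand, Cldn5 held AACNGGTT on the strand shown, and Cldn3 and Cldn7 held neither. Another annotated start of Cldn7 has CAGGTG in 2 places in its upstream window. Among all 32851 upstream windows of the same length, 17.2% held CAGGTG and 1.79% held AACNGGTT. The members had 50 windows, of which 8 (16%) held CAGGTG and 1 (2%) held AACNGGTT. Counted by gene, 39 members had a window, and 7 of those held CAGGTG and 1 held AACNGGTT. The matches are letters in a window and not evidence of binding.

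Among less abundant claudins, Cldn13 had the largest ratio of mTEC over cTEC of the measured claudins in both genotypes. Cldn13 (a claudin found in rodents; chromosome 5, 134914249 to 134915526, in the same stretch of the chromosome as Cldn4 and Cldn3) had 405 and 331 reads in knockout and control mTEC against 26 and 17 in knockout and control cTEC. Its log2 ratios were 3.93 (3.39 to 4.59) in knockout and 4.09 (3.43 to 4.92) in control libraries. Cldn23 had 241 and 207 reads in knockout and control mTEC and 32 and 56 in knockout and control cTEC. Cldn6, a claudin of embryonic epithelium, had 85 and 69 reads in knockout and control mTEC and 23 and 26 in knockout and control cTEC. With Cldn6, 6 claudins met the rule in both genotypes. By pair, 9 of 16 measured claudins were higher in mTEC in knockout and 6 of 15 in control libraries, against 19.8% and 19.0% of all genes. Cldn9, the neighbour of Cldn6, lies 137 bases away in opposite orientation. It had 218 and 228 reads in knockout and control mTEC and 86 and 119 in knockout and control cTEC. Cldn9 met the rule in the knockout pair (1.33, 0.97 to 1.72) and not in the control pair (0.78, 0.45 to 1.11).

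No other claudin was higher in mTEC by the size rule in both genotypes. Cldn1 (a sealing claudin of the epidermal barrier) stood at 19.6, 20.5, 17.9 and 21.4 RPKM in knockout mTEC, control mTEC, knockout cTEC and control cTEC. Cldn12, which lacks the usual PDZ-binding tail, had 260 and 248 reads in knockout and control mTEC against 477 and 473 in knockout and control cTEC. Its log2 ratio was -0.88 (-1.10 to -0.66) in knockout and -1.09 (-1.32 to -0.86) in control libraries. With library totals in place of the scaling used here the control ratio fell just short of 2-fold and no longer met the rule. Cldn8 had 33 and 60 reads in knockout and control mTEC and 74 and 102 in knockout and control cTEC. Of the other measured claudins, Cldn2 (a pore-forming claudin) and Cldn15 had 28 to 74 reads in every library, and Cldn10, Cldn19 and Cldn34c1 had 5 to 41. In the knockout pair Cldn10 met the size rule with a log2 ratio of 1.01 (0.23 to 1.88), and Cldn11 did so at 2.18 (1.70 to 2.73). Both were also higher in control mTEC. Cldn11 stood at 0.77 (0.42 to 1.14) there, short of 2-fold. Cldn10 stood at 1.74 (0.72 to 3.04), with fewer than 50 reads in the control pair. Cldn19 held fewer than 50 reads in both mTEC over cTEC pairs, with 36 and 20 reads in knockout and control mTEC and 9 and 5 in knockout and control cTEC.

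The remaining 16 claudins had fewer than 50 reads in every comparison, with at most 36 in any library. Cldn18, the claudin of stomach and lung, had 24 reads in each mTEC library and 0 in each cTEC library. Set against a floor of 3 reads per library, that is 7.98-fold in knockout and 7.17-fold in control mTEC. These folds leave out counting error, and the log2 counting intervals start lower, at 2.59 in knockout and 2.43 in control. Cldn14, an inner ear and kidney claudin, had 36 reads in knockout mTEC and 6 in control mTEC, and 0 in both cTEC libraries. The members without a read were Cldn22, Cldn34a, Cldn34b1, Cldn34b3, Cldn34c2, Cldn34c4 and Cldn34d, each at 0 reads in all 4 libraries. The floor of 3 reads corresponds to 0.171 CPM in knockout mTEC, 0.176 in control mTEC, 0.171 in knockout cTEC and 0.196 in control cTEC. The 95% counting interval of 0 reads reaches 0.210, 0.216, 0.210 and 0.241 CPM in the same order. Cldn22 and several Cldn34 genes share sequence with other genes (100% of the 50-base windows for Cldn22 and 93.9% for Cldn34c2), and reads of such copies may be left uncounted.

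**Figure D3:**
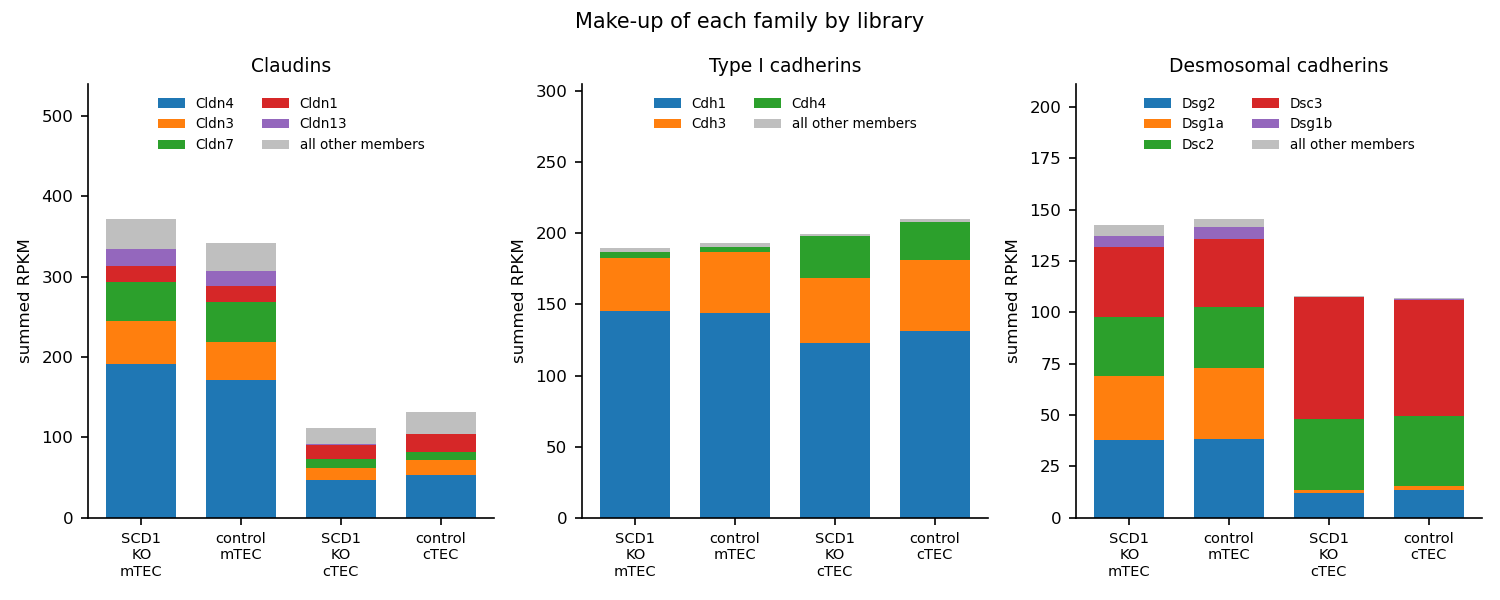
Summed RPKM of claudins, type I cadherins and desmosomal cadherins (desmogleins with desmocollins) in each library, split by leading member. Cldn4 fills the largest part of the claudin bars, Cdh4 appears mainly in cTEC, and Dsg2 and Dsg1a shrink in cTEC while Dsc3 and Dsc2 remain.

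Desmosomal cadherins differed in make-up between the populations. All 9 desmoglein and desmocollin genes lie in a cluster on chromosome 18 from 19960930 to 20604521, with the desmocollins on the minus strand and the desmogleins on the plus strand. Together the cluster had 15243 and 15121 unscaled reads in knockout and control mTEC and 10725 and 9345 in knockout and control cTEC. On scaled counts its log2 ratio of knockout over control was -0.03 (-0.06 to 0.0002) in mTEC and 0.0009 (-0.04 to 0.04) in cTEC. The ratio of mTEC over cTEC was 0.50 (0.47 to 0.54) in knockout and 0.54 (0.50 to 0.57) in control libraries. Every one of the 5 measured desmogleins was higher in mTEC by the size rule in both genotypes, while the 2 measured desmocollins had log2 ratios below 0. Dsg2 (the desmoglein of simple epithelia) had 5511 and 5384 reads in knockout and control mTEC, against 1703 and 1685 in knockout and control cTEC. Its log2 ratios were 1.69 (1.61 to 1.77) in knockout and 1.52 (1.44 to 1.60) in control libraries.

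Dsg1a, a desmoglein of upper epidermal layers, had 3105 and 3353 reads in knockout and control mTEC, against 160 and 164 in knockout and control cTEC. Its log2 ratios were 4.27 (4.05 to 4.51) and 4.19 (3.97 to 4.43) in knockout and control. Dsg1a and Dsg1b share 35.0% and 49.0% of their 50-base windows with other genes, among them each other and Dsg1c, so the split between them is uncertain. The 3 genes summed gave 3493 and 3746 reads in knockout and control mTEC and 174 and 179 in knockout and control cTEC, a log2 ratio of 4.32 (4.10 to 4.55) in knockout and 4.23 (4.01 to 4.45) in control libraries. The contrast in the sum was thus as large as in Dsg1a. Dsg4, of hair follicle and upper epidermis, had 185 and 135 reads in knockout and control mTEC and 8 in each cTEC library. Dsg3, the desmoglein of basal epidermis and mucosa, had 99 and 83 reads in knockout and control mTEC and 19 and 21 in knockout and control cTEC.

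Dsc3, the desmocollin of basal stratified epithelium, led the desmosomal cadherins in cTEC. It stood at 34.0 and 33.3 RPKM in knockout and control mTEC, against 59.2 and 56.9 in knockout and control cTEC. The log2 ratio was -0.80 (-0.86 to -0.74) in knockout and -0.77 (-0.84 to -0.71) in control libraries, short of 2-fold. Dsc3 made up 23.8% and 22.9% of desmosomal cadherin RPKM in knockout and control mTEC and 54.8% and 53.2% in knockout and control cTEC. Dsc2, the most widely expressed desmocollin, stood at 28.9, 29.7, 34.8 and 34.1 RPKM in knockout mTEC, control mTEC, knockout cTEC and control cTEC. Dsc1, of upper epidermis, had 49 and 32 reads in knockout and control mTEC and 0 and 2 in knockout and control cTEC. In the knockout pair that is at least 16.3-fold higher in mTEC. The 6 keratinocyte markers, which include Ivl and Krt10, summed to 146 and 138 CPM in knockout and control mTEC and 52.6 and 54.5 in knockout and control cTEC, and their part in the Dsg1 and Dsc1 contrasts was not tested.

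Plakophilins, the armadillo proteins of the desmosomal plaque, were nearly level except for Pkp2. Pkp1 stood at 62.1, 59.6, 66.6 and 64.0 RPKM in knockout mTEC, control mTEC, knockout cTEC and control cTEC. Pkp3 stood at 36.7 and 37.2 RPKM in knockout and control mTEC and 40.3 and 42.7 in knockout and control cTEC. Pkp4, the member also found at adherens junctions, stood at 21.1 in both mTEC libraries and at 26.0 and 25.3 in knockout and control cTEC. Pkp2, the plakophilin of simple epithelia and heart, had 315 and 285 reads in knockout and control mTEC, against 105 and 112 in knockout and control cTEC. Its log2 ratios were 1.58 (1.26 to 1.91) in knockout and 1.19 (0.87 to 1.52) in control libraries.

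The cytoplasmic and membrane partners of these proteins were read from a list of 36 genes. Of the 33 measured in mTEC against cTEC, 6 were higher in mTEC by the size rule and 0 lower in each genotype. The share higher was close to that of all genes tested, 19.8% in the knockout and 19.0% in the control pair, where 8.96% and 8.53% were lower. The tight junction scaffold gene Tjp3 (ZO-3) had log2 ratios of 2.41 in knockout and 2.40 in control libraries, Marveld2 (tricellulin) 2.50 and 2.28, and Ocln (occludin) 1.94 and 2.04. Nectin4 and Lsr, which encode a nectin and the tricellular junction protein angulin-1, also met the rule in both genotypes. Jam3 did so in the knockout pair and Ctnna2 in the control pair. The scaffold gene Tjp1 (ZO-1) stood at 0.05 in knockout and 0.03 in control libraries. The desmosomal partners Dsp (desmoplakin), Jup (plakoglobin) and Perp had log2 ratios of -0.57, -0.49 and -0.40 in knockout and -0.56, -0.61 and -0.51 in control libraries.

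SCD1 status was compared next, to see which junction genes differed between knockout and control libraries of the same population. In mTEC, 1 of 45 measured members, Cldn5, was higher in the knockout library by the size rule and 0 were lower, against 0.504% and 0.431% of 16466 genes. In cTEC, Cdh5 was higher and Cldn11 lower among 32 measured members, against 0.492% and 0.706% of 14445 genes. These 3 genes had at most 189 reads in any library. The median log2 ratio of knockout over control over measured members was 0.02 in mTEC and -0.14 in cTEC, beside 0.01 in each over all genes tested.

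Cldn5, the main claudin of endothelial tight junctions (chromosome 16, 18776847 to 18778262), had 53 reads in knockout mTEC, 10 in control mTEC, 65 in knockout cTEC and 49 in control cTEC. The control mTEC library stood below the other 3. The log2 ratio of knockout over control was 2.31 (1.37 to 3.50) in mTEC and 0.21 (-0.35 to 0.78) in cTEC. Cdh5 (VE-cadherin, which joins endothelial cells; chromosome 8, 104101625 to 104144511) had 45 reads in knockout mTEC, 28 in control mTEC, 53 in knockout cTEC and 17 in control cTEC. Its log2 ratio was 0.63 (-0.07 to 1.38) in mTEC and 1.41 (0.63 to 2.32) in cTEC. The 12 endothelial markers all had reads in each library, and summed to 75.2 CPM in knockout mTEC, 68.2 in control mTEC, 46.9 in knockout cTEC and 33.1 in control cTEC. Of the measured endothelial markers, 3 of 9 had an interval above 0 and 1 below in the mTEC pair, against 11.6% and 10.2% of all genes. In the cTEC pair 3 of 6 lay above 0 and 0 below, against 16.3% and 14.5%. Tek and Emcn had fewer than 50 reads in the cTEC pair and are outside these counts. There Tek, with 15 knockout and 29 control reads, had an interval below 0. Emcn, with 11 knockout and 2 control reads, had an interval above 0. The part of the endothelial markers in the Cldn5 and Cdh5 values was not tested. In the mTEC against cTEC comparison Cldn5 was lower in control mTEC (-2.39, -3.60 to -1.45) and not past the rule in the knockout pair (-0.30, -0.85 to 0.25).

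Cldn11, the claudin of myelin and of the testis barrier (chromosome 3, 31149920 to 31164324), had 184 reads in knockout mTEC, 189 in control mTEC, 40 in knockout cTEC and 99 in control cTEC. The log2 ratio of knockout over control was -0.08 (-0.38 to 0.22) in mTEC and -1.49 (-2.07 to -0.96) in cTEC. Cldn23 lay just short of the rule in cTEC, with 32 reads in the knockout and 56 in the control library (1.99-fold lower in knockout, log2 interval -1.68 to -0.35), and met it with library totals or with DESeq2 size factors. In mTEC Cldn23 stood at 0.17 (-0.10 to 0.45). Cldn8 was below 0 in both populations, at -0.90 (-1.57 to -0.27) in mTEC and -0.66 (-1.11 to -0.21) in cTEC. Cldn9 stood at -0.11 (-0.38 to 0.17) in mTEC and -0.66 (-1.08 to -0.25) in cTEC.

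Claudin ratios between genotypes were mostly below 0 in cTEC. Of 12 measured claudins there, 7 had an interval below 0 and 0 above it, and the family median was -0.21. Over all 32 measured members in cTEC, 12 intervals lay below 0 and 5 above, against 14.5% and 16.3% of all genes tested. In mTEC 11 of 45 lay above 0 and 3 below, against 11.6% and 10.2%. A gene with more reads has a narrower interval, and these shares do not take read number into account. The 8 mTEC markers had a median log2 ratio of -0.20 between knockout and control cTEC and 0.02 between knockout and control mTEC, with 3 and 1 intervals below 0. The 8 cTEC markers had a median of 0.33 in both pairs. The 10 thymocyte markers all had reads in every library, and summed to 256 CPM in knockout mTEC, 211 in control mTEC, 384 in knockout cTEC and 299 in control cTEC. In the cTEC pair 9 of 10 had an interval above 0 with a median of 0.36, and in the mTEC pair 7 of 10 with a median of 0.27. The part of these marker lists in the claudin values was not tested.

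The abundant junction genes differed little between genotypes. Cdh1 stood at 0.01 (-0.03 to 0.05) in mTEC and -0.10 (-0.14 to -0.06) in cTEC. Cdh3 stood at -0.20 (-0.27 to -0.13) and -0.13 (-0.20 to -0.07), and Cdh4 at 0.18 (0.01 to 0.36) and 0.15 (0.08 to 0.22) in mTEC and cTEC. Dsg2 stood at -0.01 (-0.06 to 0.04) in mTEC and -0.18 (-0.28 to -0.08) in cTEC, and Dsg1a at -0.15 (-0.23 to -0.08) in mTEC and -0.23 (-0.56 to 0.09) in cTEC. Dsc2, Dsc3, Pkp1, Pkp3 and Pkp4 lay between -0.08 and 0.06 in both populations. Among rarer members, Cdh9 stood at 0.55 (0.20 to 0.91), Cdh26 at 0.74 (0.17 to 1.34) and Dsg4 at 0.41 (0.08 to 0.74) in mTEC. None of the junction partners met the size rule between genotypes, of 34 measured in mTEC and 33 in cTEC. Few genes of any kind did, at 0.504% higher and 0.431% lower in mTEC and 0.492% and 0.706% in cTEC. In mTEC 3 of the partners' intervals lay above 0 and 3 below, and in cTEC 1 above and 10 below, with medians of -0.01 and -0.05. The shares over all genes were 11.6% above and 10.2% below in mTEC, and 16.3% and 14.5% in cTEC.

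**Figure D4:**
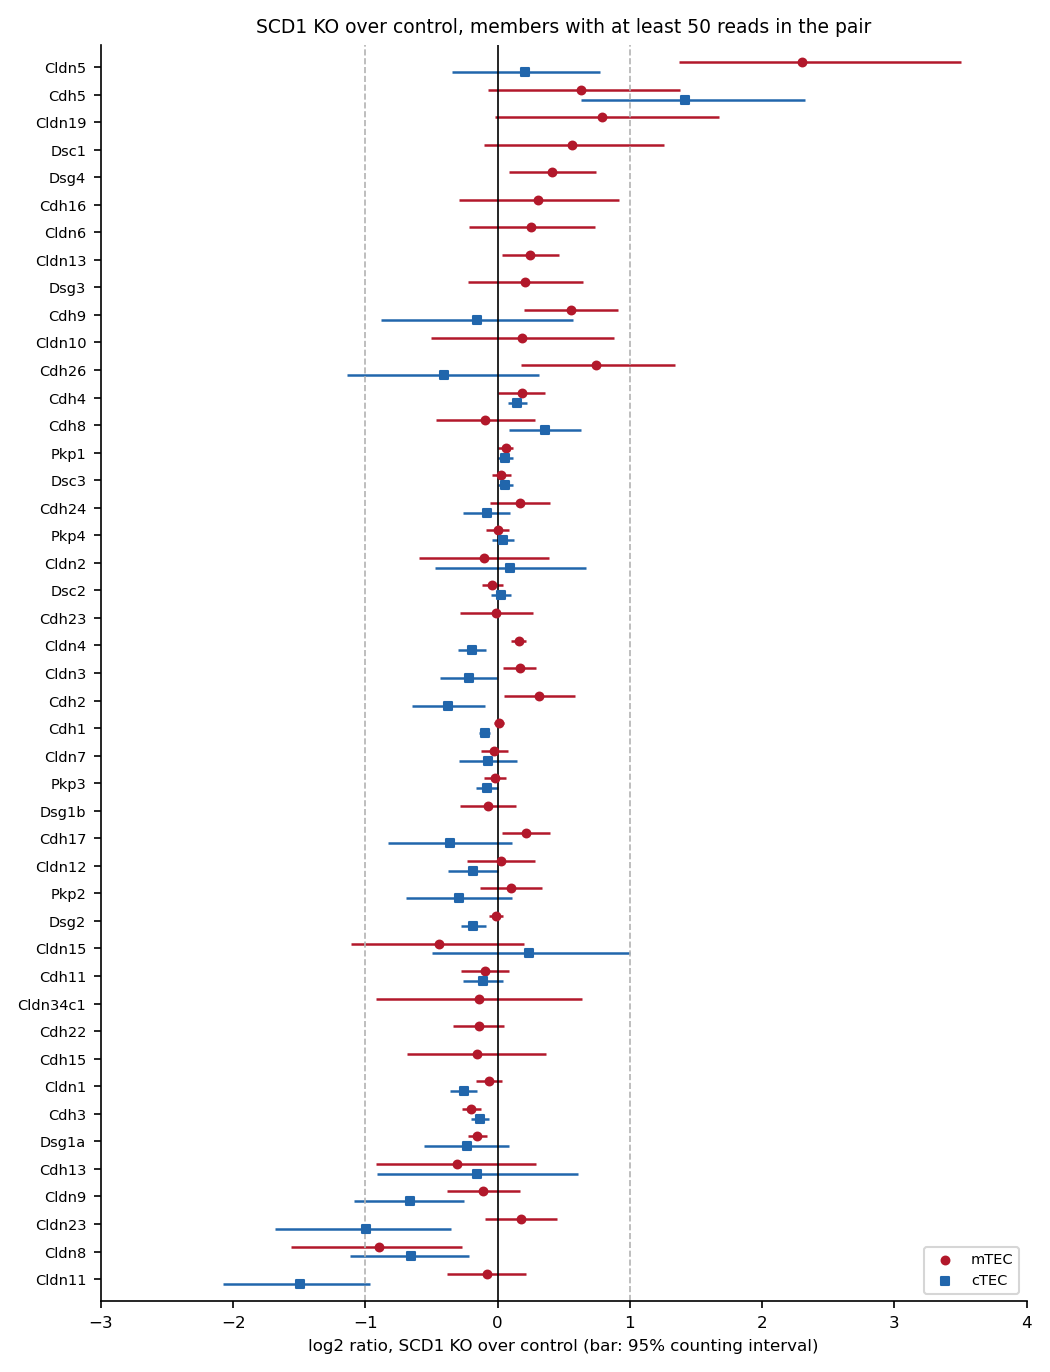
Log2 ratio of SCD1 knockout over control for each member with at least 50 reads in the pair, in mTEC (circles) and cTEC (squares); bars are 95% counting intervals and dashed lines mark 2-fold. Most points lie within 2-fold, with Cldn5 in mTEC and Cdh5 in cTEC to the right and Cldn11 in cTEC to the left.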

How the data were processed

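RNA of 4 sorted cell preparations was sequenced, 1 library per group. The values the authors deposited are unnormalized read counts of each gene. The submitters' processing notes name CASAVA, the aligner HISAT2 (2.0.5), the counter featureCounts (1.5.0-p3) and the build mm10. No source used here gives the annotation release, the strand setting or the treatment of multi-mapping reads. Gene length in bases, per the file headers, is another (other) kind of value and served as the length scale. Library sizes were adjusted by edgeR's TMM factors (edgeR 4.0.16, R 4.3.3), with Python 3.11.15 and scipy 1.17.1 for the rest. Log2 ratios carry a prior count of 0.5 reads and an exact conditional binomial 95% interval. The rule was 50 reads in the pair, 2-fold and an interval excluding equality, applied to the whole table. A floor of 3 counts was used for libraries at 0. Because PCR copies are not separate molecules, both the intervals and this floor describe counting error alone.

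Members and lists were chosen with earlier results of these data known. Named genes are members past the rule between genotypes, up to 10 a side between populations, the 3 of highest RPKM in each class, a short list of known markers, and chromosome neighbours. Other members named were chosen after their values were seen. Shared sequence and overlapping exons were measured on GENCODE M21 (GRCm38, the build of the deposited coordinates), with 50-base windows.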

Additional observations from a re-analysis of the deposited data

Results flagged for a closer look

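Genotype ratios on opposite sides of 0 in mTEC and cTEC, with both counting intervals excluding 0, drew attention to 3 of the 32 members measured in both pairs (9.38%), against 369 of 13953 genes (2.64%) measured in both. A gene with more reads has narrower intervals, and read number was not taken into account. With 1 library per group the difference between populations was not tested. Cldn4 had a log2 ratio of knockout over control of 0.16 (0.10 to 0.21) in mTEC and -0.19 (-0.30 to -0.09) in cTEC, a difference of 0.35. Its neighbour Cldn3 had 0.17 (0.04 to 0.29) in mTEC and -0.22 (-0.44 to -0.0015) in cTEC, a difference of 0.38. Cdh2 had 0.32 (0.05 to 0.58) in mTEC and -0.37 (-0.65 to -0.10) in cTEC, a difference of 0.69.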

How the results depend on the processing

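No paired analysis was possible because each group has 1 library and the labels give no replicate numbers, so no library could be left out either. Of the recomputed counts and medians of members, 86 stayed within bounds and 14 moved. For a count the bound was 1.5 times. A median was within bounds between the median lower and median upper interval ends of the genes it covers. That bound is wide, at 0.23 to 1.72 around 1.01 for mTEC over cTEC in knockout libraries. In the mTEC genotype pair the count of higher members was 1. It became 2 with a minimum of 10 reads or with none, 0 with a minimum of 200 reads, and 2 at a 1.5-fold threshold, where the count of lower members became 1 in place of 0. In the cTEC genotype pair the count of lower members was 1 and became 2 with library totals or DESeq2 size factors, where Cldn23 passed 2-fold, 0 with a minimum of 200 reads, and 4 at 1.5-fold. The count of higher members there became 0 with a minimum of 200 reads. For mTEC over cTEC the lower members became 6 in knockout and 7 in control libraries at 1.5-fold. Without a minimum the knockout median became 1.86 and the higher members in control libraries 26. A prior count of 2, a 99% interval where it was applied, and leaving out members with near-identical relatives moved none of these counts or medians. The junction partner counts and medians, recomputed in ways chosen after seeing the data, stayed within bounds in all 48 cases. Over all genes the counts also changed with the minimum. With 50 reads, 83 genes were higher and 71 lower in knockout than control mTEC, 71 and 102 in cTEC, and for mTEC over cTEC 3162 and 1430 in knockout and 2990 and 1343 in control libraries. With 10 reads, 404 genes were higher and 366 lower in knockout than control mTEC, and with 200 reads 10 and 9. In cTEC they were 370 and 474 with 10 reads, and 7 and 13 with 200 reads. For mTEC over cTEC they were 5421 and 1886 in knockout and 5145 and 1844 in control libraries with 10 reads, and 1508 and 1007, and 1416 and 937, with 200 reads. Other scalings moved the median of all genes by less than 0.1 on the log2 scale. Depth limits the members with few reads, whose intervals are wide.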

Other observations

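The 2 pseudogenes whose symbols also match the member pattern had 3 reads in knockout mTEC, 1 in control mTEC and 0 in both cTEC libraries. Cldn14, below the 50-read minimum, had a ratio of knockout over control mTEC of 2.45 (1.28 to 4.08) on the log2 scale from 36 knockout and 6 control reads. Cdh26, a cadherin of gut and airway epithelium, had 71 reads in knockout mTEC, 41 in control mTEC, 32 in knockout cTEC and 37 in control cTEC. Its log2 ratio of mTEC over cTEC met the size rule in the knockout pair (1.13, 0.53 to 1.80) and stood at -0.01 (-0.69 to 0.67) in the control pair.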
